A study of Equus caballus with 4 samples.

Results

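The genes described here are those of the mevalonate pathway, of cholesterol synthesis, of its sterol sensors and of sterol transport, read in differentiating horse muscle satellite cells given HMB. They were chosen by name: 34 gene names stand for 32 genes, since *SC4MOL* is an older name of *MSMO1* and *SC5DL* of *SC5D*. Of these 32 genes, 28 had a probe under their name among the 24998 gene names of the array, with 47 probes in all. No probe carried the name of *CYP51A1*, *FDPS*, *IDI1* or *ABCG1*. A probe was tested when the same group's signal was well above background, as marked by the scanning software, on all 4 arrays. By that rule 27 genes were tested, with 46 probes, and *ABCA1* was too dim.

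Equine satellite cells, the stem cells of skeletal muscle, came from the semitendinosus muscle of colts aged 6 months and were grown and then switched to a low-serum medium in which they differentiate. HMB (β-hydroxy-β-methylbutyrate, a leucine metabolite used as a feed and sports supplement) was given for 24 h up to day 3 of differentiation, and control cells had the same medium without it. Each of 4 biological replicates is 1 two-colour array with HMB-treated cells in the Cy5 dye and control cells in Cy3, so every value is a ratio within an array. This follows the titles and source names, which number the replicates, whereas the description fields call the treated cells GO-treated and end in rep1 on every array. The dyes were never swapped, so a dye bias of a probe cannot be told apart from HMB. The labels state the dose as 50 µg with no volume, the methods section states it in µM, and which animal an array holds is not given. The cultures had been preplated to reduce fibroblasts, and no clone or sort defines the cells. The median probe's spot was 3.16 to 3.82 times its local background in control cells and 4.68 to 5.85 times in HMB-treated cells, and the number of arrays limits the precision.

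Cells make sterols from acetyl-CoA: HMG-CoA is formed and reduced to mevalonate, mevalonate becomes isoprenoid diphosphates, and their condensation to squalene starts the steps to lanosterol and cholesterol. When sterols in the endoplasmic reticulum are low, SCAP escorts the SREBP transcription factors to the Golgi, where they are cleaved and then switch on the genes of the pathway, while INSIG proteins hold SCAP back when sterols are plentiful; the LXR receptors sense oxysterols and drive efflux. Differentiating muscle cells need membrane cholesterol, and HMB has been linked to the pathway because it can be turned into HMG-CoA.

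The labelled cell type was checked against markers. Of 12 myogenic markers, 10 had a probe, and these 10 were well above background in both groups on all 4 arrays, while *PAX7* and *CDH15* had no probe under their name. All 10 were lower with HMB at a limma adjusted P of at most 0.05 (the threshold used throughout, adjusted over all tested probes), with a median log2 ratio of -0.89 (over all gene names 22.4% passed in either direction at their brightest probe, with a median of 0.02). Their median was -0.44 on array 1, the least, and -1.21 on array 4, the most, with arrays 2 and 3 between. *MYOD1*, a myogenic transcription factor, had a mean of -0.46 (adjusted P 0.023), with 1 of its 2 probes past the threshold. *MYOG*, which drives differentiation, had a mean of -0.42 (adjusted P 0.0222). *MYH8*, the perinatal myosin heavy chain, had a mean of -1.93 (adjusted P 0.00113). Without array 2, 3 or 4 in turn, *MYOD1* (-0.44 to -0.40) and *MYOG* (-0.46 to -0.35) missed the threshold, and 6 of the 10 markers passed it.

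Fibroblast markers were also well above background: 10 of 12 were tested and 2 passed (20%), both higher with HMB, with means above 0 in 6, below 0 in 4 and a median of 0.08. Those that passed were *PDGFRA*, a growth factor receptor of mesenchymal cells (mean 1.53, adjusted P 0.00358, and 0.89 with normexp, a background correction that keeps dim signals positive, followed by loess), and *FAP*, a surface protease (mean 0.42, adjusted P 0.0185). *FAP* missed the threshold without array 1, 2 or 3 (0.36 to 0.40). Probes other than the brightest passed in both directions. *DCN*, a matrix proteoglycan, had 1 of 2 probes past the threshold and higher (0.39, adjusted P 0.0207), which missed it without array 1, 2 or 3 (0.32 to 0.38), with the 1-sample t-test, with channels unpaired and with no filter on dim probes, while its brightest probe was at 0.15 (adjusted P 0.286). The collagen gene *COL1A2* had 2 of 9 past it and lower (-0.55 and -0.59, adjusted P 0.0279 and 0.0324), with its brightest at -0.20 (adjusted P 0.247). Both calls ended without array 2, 3 or 4 (-0.59 to -0.42), with the 1-sample t-test, with normexp and with no filter on dim probes. These *COL1A2* values moved with the processing: without lowess, the intensity-dependent dye normalisation, the 2 probes were at 0.44 and 0.34 and the brightest at 0.81 (adjusted P 0.00172), and with normexp they were at -0.20, -0.28 and 0.17. Of macrophage and leukocyte markers, 3 of 10 were tested, with a median of 0.02, and 1 passed (33.3%). That was *MSR1*, a scavenger receptor well above background on 4 arrays with HMB and on 0 in control cells. Its probe was tested on account of the HMB channel alone, and its ratios are over control signals of 3.00 to 4.25, so no fold change is given. With both channels required above background it was not tested and 0 of these markers passed in limma, with 1 at an unadjusted P under 0.05. That was *CD68*, a lysosomal protein of macrophages, lower on 4 of 4 arrays with a mean of -0.29 (adjusted P 0.12). *CD14*, a surface receptor, had a mean of 0.02 (adjusted P 0.868), which changed sign with normexp (-0.03) and without array 1 (-0.04). None of the 5 adipocyte or of the 5 endothelial markers with a probe was bright enough to test. In such bulk samples, fewer cells of a type and less RNA per cell cannot be told apart. The part of these marker changes in the sterol gene values was not tested.

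With HMB, 2 of the 27 tested sterol genes passed the threshold (7.41%): *SREBF1* was higher and *TM7SF2* lower. Over all 27383 tested probes 22.8% passed, 11.2% higher and 11.6% lower with HMB. With the brightest tested probe of each of 15614 gene names, as used for the sterol genes, 22.4% passed, 10.9% higher and 11.6% lower. The sterol genes' median log2 ratio was -0.02, beside 0.02 over all tested probes, and their median absolute log2 ratio was 0.11, beside 0.15. Without adjustment, 7 of the 27 had a P under 0.05, beside 38.5% of all tested probes. Among the 25 genes that did not pass, 24 had a 95% interval within a 1.5-fold change in either direction, and the exception was *MSMO1*. Means lay above 0 in 12 genes and below 0 in 15. The lists of genes that follow can be read beside these shares and medians. The choice of test weighed on the calls made at brightest probes: a 1-sample t-test, which takes each probe's own spread, kept that of *BDH1* alone among the genes named, with 0 sterol genes past the threshold and 5 at an unadjusted P under 0.05. Of the genes well above background in both groups, *OSBPL3*, *BDH1*, *MYH8*, *PDGFRA* and *FAP* kept theirs with channels unpaired, and with no filter on dim probes the same genes did except that *TMEM97* took the place of *FAP*.

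Agreement among the arrays was also limited. The ratio had the same sign on all 4 arrays in 10 of the 27 genes (37.0%, 6 lower and 4 higher), beside 46.4% of all tested probes, and the signs were mixed in 17. On array 4 the sterol genes were low. The sterol genes' median on arrays 1 to 4 was 0.09, 0.05, 0.00 and -0.23, while over all tested probes it was 0.01, 0.01, 0.03 and 0.02. On array 4, 21 of the 27 genes were below 0 (77.8%, beside 47.7% of all tested probes), against 10, 12 and 12 on arrays 1 to 3. In 21 genes array 4 gave the lowest of the 4 ratios (77.8%), beside 34.0% of all tested probes. By step, the array 4 median was -0.22 for the mevalonate genes, -0.29 for sterol synthesis, -0.27 for the regulators and 0.07 for transport, where 1 of 4 genes was below 0. The related lists went both ways on array 4: medians were 0.27 for uptake, 0.09 for isoprenoids, 0.06 for fatty acid synthesis, 0.04 for SREBP cleavage and degradation, 0.02 for oxysterols, -0.03 for other sterol synthesis, -0.08 for trafficking and -0.27 for the mitochondrial HMG-CoA and ketone body genes. Across the 27 sterol genes, which are not independent, array 1 had the lowest correlations with the other arrays (Pearson r 0.39, 0.30 and 0.54 with arrays 2 to 4), and array 4 had 0.67 and 0.72 with arrays 2 and 3. Over all tested probes, array 1 had 0.69, 0.68 and 0.54 with arrays 2 to 4, and array 4 had 0.70 and 0.71 with arrays 2 and 3. Without array 4 the sterol genes' median was 0.06 and 4 genes passed, without array 2 there was 1, and without array 1 there were 3. Without array 3 the count by limma was 0, with 5 at an unadjusted P under 0.05. Of all tested probes, 17.7% passed without array 1, 9.35% without array 2, 9.84% without array 3 and 17.7% without array 4. Array 4 also had the lowest share of spots well above background of the 4 arrays in both groups (63.5% in control and 64.2% in HMB-treated cells), and its part in the low sterol gene values was not tested.

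**Figure D1:**
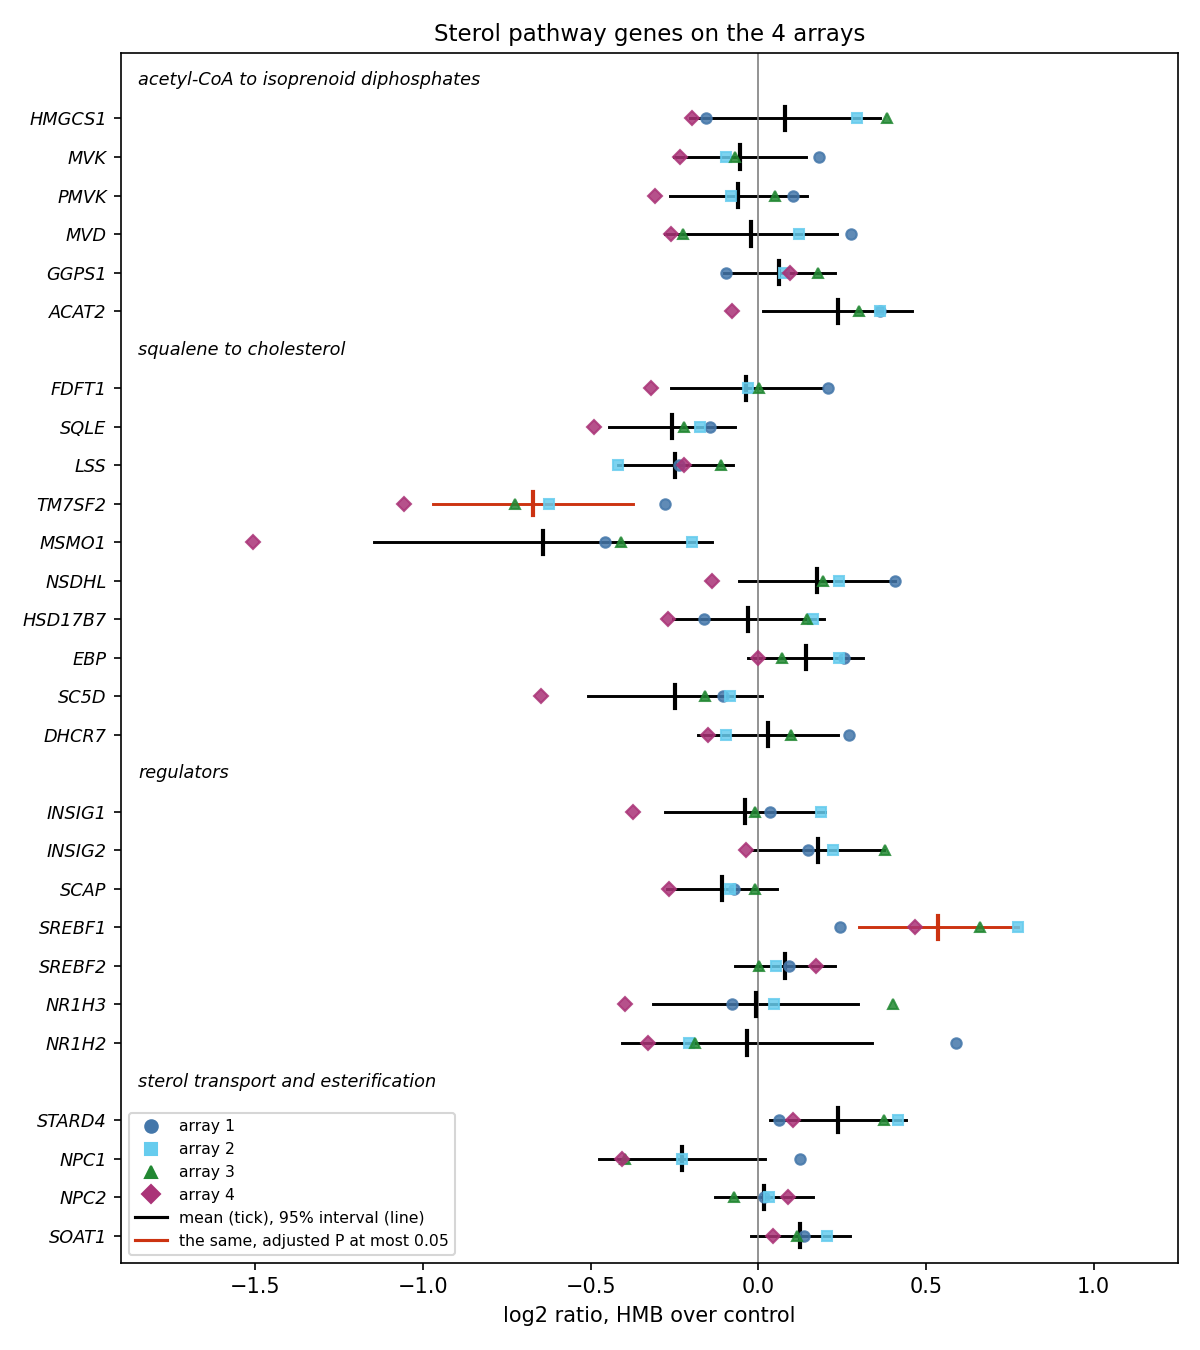
Log2 ratio of HMB over control (x axis) for the brightest tested probe of each of the 27 sterol genes, with a symbol per array, a tick for the mean and a line for the 95% interval, in red where the adjusted P was at most 0.05. *TM7SF2* (mean -0.67) and *SREBF1* (mean 0.54) are the red genes, and array 4 (diamonds) is the lowest in 21 genes.

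**Figure D2:**
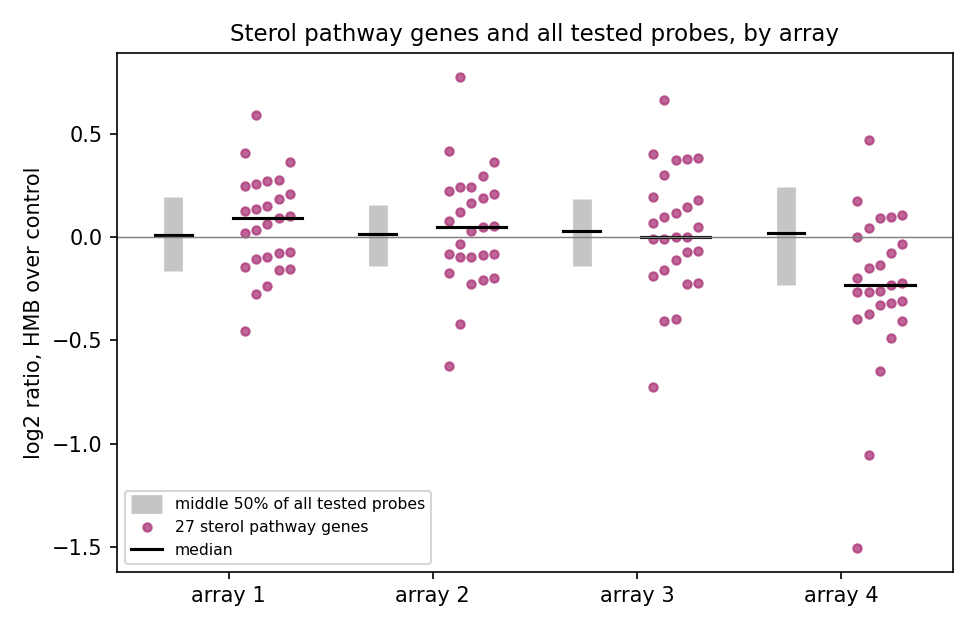
Log2 ratio of HMB over control (y axis) by array, with a point for each of the 27 sterol genes, a bar for the middle 50% of all tested probes and a line for each median. The sterol genes' median is 0.09 on array 1 and -0.23 on array 4, while that of all tested probes stays between 0.01 and 0.03.

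From acetyl-CoA to the isoprenoid diphosphates, none of the 6 tested genes passed the threshold in limma, and 1 had an unadjusted P under 0.05. Their median log2 ratio was 0.02. *HMGCS1*, the cytosolic enzyme that makes HMG-CoA for mevalonate, had log2 ratios of -0.16, 0.29, 0.38 and -0.20 on arrays 1 to 4. Arrays 2 and 3 were above 0 and arrays 1 and 4 below, and the mean was 0.08 (SE 0.12, 95% interval -0.20 to 0.36, adjusted P 0.653). *ACAT2*, the cytosolic thiolase that joins acetyl-CoA units, was at 0.36, 0.36, 0.30 and -0.08. Its first 3 arrays lay close together and array 4 apart, with a mean of 0.24 (SE 0.09, adjusted P 0.112), and the mean passed without array 4 (0.34, adjusted P 0.0238) and without lowess (0.35, adjusted P 0.0231).

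Below HMG-CoA the means were small. Mevalonate kinase (*MVK*) had a mean of -0.05 (adjusted P 0.661), with array 1 above 0 and the other arrays below. Phosphomevalonate kinase (*PMVK*), the next enzyme, had a mean of -0.06 (adjusted P 0.642). The decarboxylase *MVD* had a mean of -0.02 (adjusted P 0.894). These 3 genes, like *HMGCS1*, had ratios of both signs. *GGPS1*, which makes geranylgeranyl diphosphate for protein prenylation, had a mean of 0.06 (adjusted P 0.54), and its other probe 0.03. *FDPS*, the farnesyl diphosphate synthase, was found by its RefSeq accession only and is outside the 27: its ratios were 0.16, 0.15, 0.05 and -0.37, with a mean of -0.00 (SE 0.10, adjusted P 0.991). It too was lowest on array 4. The isomerase *IDI1* had no probe under its name.

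From squalene to cholesterol, 1 of the 10 tested genes passed (10%), and 4 had an unadjusted P under 0.05. Their median was -0.14, and all 10 were below 0 on array 4. The gene that passed was *TM7SF2*, a sterol reductase that removes a double bond of the sterol ring after demethylation. Its probe (A_69_P011006) matches chr12:15595318-15595377, plus strand, of the horse build EquCab1. The sequence is shown, in lower case with no base marked, because it is the only probe of these 10 genes that passed.
TM7SF2 A_69_P011006: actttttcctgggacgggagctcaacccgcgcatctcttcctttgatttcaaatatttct

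The processed signal of *TM7SF2* on arrays 1 to 4 was 469, 446, 428 and 404 in control cells. In HMB-treated cells it was 387, 289, 259 and 194. The groups did not overlap. The log2 ratios were -0.28, -0.63, -0.73 and -1.06, lower on 4 of 4 arrays, least on array 1 and most on array 4. *TM7SF2* fell to 62.8% of control, a mean of -0.67 (SD 0.32, SE 0.12, 95% interval -0.97 to -0.37, adjusted P 0.015). The myogenic markers' median was likewise closest to 0 on array 1 and lowest on array 4, and whether they share a source with *TM7SF2* was not tested. *TM7SF2* missed the threshold without array 3 (-0.65, adjusted P 0.0571), with the 1-sample t-test, with channels unpaired and with no filter on dim probes, where adjusted P reached up to 0.12, and over all 14 alternatives its mean stayed between -0.80 and -0.54.

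Next to *TM7SF2* in the pathway is *MSMO1*, the methyl sterol oxidase. Its ratios were -0.46, -0.20, -0.41 and -1.51. All 4 arrays were below 0, with array 4 far below the others, and the mean of -0.64 did not pass (SE 0.21, 95% interval -1.15 to -0.14, adjusted P 0.0716). Without array 4 the mean was -0.35, and with the smaller spread it passed (adjusted P 0.0381).

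Earlier enzymes showed smaller values. Squalene synthase (*FDFT1*), the entry to the sterol branch, had a mean of -0.04 (adjusted P 0.804). Squalene epoxidase (*SQLE*), a rate-limiting enzyme, had ratios of -0.14, -0.17, -0.22 and -0.49. It was below 0 on 4 of 4 arrays, with a mean of -0.26 (SE 0.08, adjusted P 0.0597), and its other probe had a mean of -0.19 (adjusted P 0.167). Lanosterol synthase (*LSS*), which closes the sterol rings, had ratios of -0.24, -0.42, -0.11 and -0.22. Its mean was -0.25 (SE 0.07, adjusted P 0.0517), below 0 on 4 of 4 arrays and just short of the threshold. With normexp and loess *SQLE* passed (-0.29, adjusted P 0.0304), while *LSS* was at -0.10 (adjusted P 0.213). *LSS* passed without lowess (-0.46, adjusted P 0.00629) and with both channels required above background (-0.25, adjusted P 0.0494).

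The later enzymes went in both directions. *NSDHL*, a sterol dehydrogenase, had a mean of 0.18 (adjusted P 0.231), from 0.10 without array 1 to 0.28 without array 4. The ketoreductase *HSD17B7* had ratios of -0.16, 0.16, 0.15 and -0.27 at its brightest probe, with a mean of -0.03 (adjusted P 0.84). Its adjacent probe gave -0.15, 0.18, 0.22 and -0.20, with a mean of 0.01 (adjusted P 0.928). At both probes arrays 2 and 3 were above 0 and arrays 1 and 4 below. The sterol isomerase *EBP* had a mean of 0.14 (adjusted P 0.197). The desaturase *SC5D* had ratios of -0.11, -0.09, -0.16 and -0.65. Array 4 was again the low one, with a mean of -0.25 (adjusted P 0.142) that was -0.12 without array 4, and the other probe had a mean of -0.26 (adjusted P 0.108). *DHCR7*, which makes cholesterol in the last step, had a mean of 0.03 (adjusted P 0.83). The demethylase *CYP51A1*, whose product *TM7SF2* takes up, had no probe under its name.

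Among the regulators, 1 of 7 tested genes passed (14.3%), which was also the only 1 of the 7 with an unadjusted P under 0.05, and the median was -0.01. It was *SREBF1*, which codes for the SREBP factor best known for driving fatty acid synthesis. The probe (A_69_P036300) matches chrUn:245935101-245935160, plus strand, on sequence not placed on a chromosome in EquCab1. Its sequence is given because it is the only probe of the regulators that passed.
SREBF1 A_69_P036300: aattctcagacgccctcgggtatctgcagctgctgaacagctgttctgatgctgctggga

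The processed signal of *SREBF1* was 36.1, 24.0, 21.9 and 25.8 in control cells on arrays 1 to 4. In HMB-treated cells it was 42.7, 41.0, 34.7 and 35.7. The groups overlapped, since control cells of array 1 were above HMB-treated cells of arrays 3 and 4, but within each array HMB was the higher. The log2 ratios were 0.24, 0.78, 0.66 and 0.47, higher on 4 of 4 arrays and least on array 1. *SREBF1* rose 1.45-fold, a mean of 0.54 (SD 0.23, SE 0.10, 95% interval 0.30 to 0.77, adjusted P 0.0144). These are low signals, and the value moved with the processing: with normexp and loess, which change background correction and normalisation together, it was 0.15 (adjusted P 0.0933) and without lowess 0.33 (adjusted P 0.0505). It also missed the threshold without array 2 (0.46, adjusted P 0.0568) or array 3 (0.50, adjusted P 0.0609), with the 1-sample t-test, with channels unpaired and with no filter on dim probes, and over all 14 alternatives adjusted P lay between 0.0131 and 0.108.

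*SREBF2*, whose SREBP factor drives the cholesterol genes, had ratios of 0.09, 0.05, 0.00 and 0.17. All 4 were at or above 0 and small, with a mean of 0.08 (SE 0.06, 95% interval -0.07 to 0.23, adjusted P 0.388). *INSIG1*, the sterol-dependent anchor of SCAP and itself an SREBP target, had ratios of 0.03, 0.19, -0.01 and -0.37 at its brightest probe. Arrays 1 and 2 were above 0 and array 4 was the lowest, with a mean of -0.04 (SE 0.10, 95% interval -0.28 to 0.20, adjusted P 0.791). Its 4 probes overlap in sequence and had means between -0.05 and 0.03. The related anchor *INSIG2* had a mean of 0.18 (adjusted P 0.161), which was 0.11 without array 3, and its other probe 0.17.

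*SCAP* itself was below 0 on 4 of 4 arrays at each of its 5 overlapping probes, with a mean of -0.11 at the brightest (adjusted P 0.29) and a range of -0.15 to -0.09 over the 5. The brightest was at -0.05 without array 4 and at -0.02 without lowess. The LXR genes were uneven between arrays. *NR1H3* (LXR alpha) had ratios of -0.08, 0.05, 0.40 and -0.40, with a mean of -0.01 (SE 0.13, adjusted P 0.971). *NR1H2* (LXR beta) had ratios of 0.59, -0.21, -0.19 and -0.33, with a mean of -0.03 (SE 0.15, adjusted P 0.892). Array 1 alone was above 0 for *NR1H2*, and without it the mean was -0.24 (adjusted P 0.0654).

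In sterol transport and esterification, none of 4 tested genes passed at its brightest probe in limma, and 1 had an unadjusted P under 0.05. The median was 0.07. *STARD4*, a soluble carrier that moves cholesterol between membranes, had ratios of 0.06, 0.42, 0.37 and 0.10. It was above 0 on 4 of 4 arrays, more on arrays 2 and 3, with a mean of 0.24 (SE 0.08, adjusted P 0.0886) that was 0.11 without lowess. *NPC2*, the lysosomal protein that hands cholesterol to NPC1, had ratios of 0.02, 0.03, -0.07 and 0.09. The mean was 0.02 (SE 0.06, adjusted P 0.865), and its 5 overlapping probes had means between -0.04 and 0.03. With normexp correction *NPC2* was at 0.21 (adjusted P 0.0331) and without lowess at 0.73 (adjusted P 0.00372), so its value depended on the normalisation.

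*NPC1*, the membrane protein that exports cholesterol from lysosomes, was read by 3 probes that tile its transcript, and only 1 of them passed. The probes are shown because calls differ along shared sequence. In order along the plus strand of EquCab1 they are A_69_P066113 at chr8:31744471-31745225, A_69_P066112 at chr8:31744501-31745255 and A_69_P066111 at chr8:31745226-31745285. The former 2 are 60 bases long but span 755 bases of genome. Capitals mark the 30 bases that A_69_P066112 and A_69_P066111 share, and the last 30 bases of A_69_P066113 are the first 30 of A_69_P066112.
NPC1 A_69_P066113: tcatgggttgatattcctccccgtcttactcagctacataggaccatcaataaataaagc
NPC1 A_69_P066112: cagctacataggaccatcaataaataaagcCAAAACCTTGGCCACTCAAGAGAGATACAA
NPC1 A_69_P066111: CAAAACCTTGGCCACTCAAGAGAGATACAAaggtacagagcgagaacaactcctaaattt

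At A_69_P066113, the brightest of the NPC1 probes, the ratios were 0.13, -0.23, -0.40 and -0.41, with a mean of -0.23 (SE 0.10, adjusted P 0.156). A_69_P066112 gave 0.04, -0.31, -0.48 and -0.77, with a mean of -0.38 (SE 0.13, adjusted P 0.0799). A_69_P066111 gave -0.00, -0.45, -0.49 and -0.56, with a mean of -0.37 (SE 0.10, adjusted P 0.0458). All 3 probes show arrays 2, 3 and 4 below 0 and array 1 near or above it. Without array 1 the brightest probe had a mean of -0.35 and passed (adjusted P 0.0378), and with normexp it was -0.15. The call at A_69_P066111 ended without array 2, 3 or 4 (-0.35 to -0.31), with normexp (-0.23, adjusted P 0.0747), with an intensity trend and robust prior (adjusted P 0.0512), with the 1-sample t-test, with channels unpaired and with no filter on dim probes, where adjusted P was up to 0.177. Whether the 3 probes differ from each other was not tested.

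*SOAT1*, which esterifies cholesterol for storage, has 2 adjacent probes, and again only 1 passed. A_69_P073852 lies at chrUn:104992485-104992544 and A_69_P073851 starts at the next base, at chrUn:104992545-104993921, and spans 1377 bases of genome, both on the plus strand of EquCab1. They share no base, so none is in capitals, and they are shown as neighbouring stretches of the same transcript with different calls.
SOAT1 A_69_P073852: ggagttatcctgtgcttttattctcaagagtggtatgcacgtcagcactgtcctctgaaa
SOAT1 A_69_P073851: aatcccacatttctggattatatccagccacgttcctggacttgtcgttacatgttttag

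The brighter, A_69_P073851, had ratios of 0.14, 0.21, 0.12 and 0.04, with a mean of 0.13 (SE 0.06, adjusted P 0.182), which was 0.06 with normexp and 0.07 without lowess. A_69_P073852 had ratios of 0.37, 0.20, 0.19 and 0.29, with a mean of 0.26 (SE 0.06, adjusted P 0.0314). Both probes of *SOAT1* were above 0 on 4 of 4 arrays, and their difference was not tested. The call at A_69_P073852 ended whichever array was left out (0.23 to 0.29), with normexp (0.16, adjusted P 0.0666), without lowess (0.17, adjusted P 0.142), with the 1-sample t-test and with channels unpaired. Counting any probe, 4 of the 27 sterol genes had a call, beside 25.2% of all gene names counted that way. *ABCA1*, the cholesterol efflux pump and an LXR target, was well above background on 0 arrays in control cells and on 1 array in HMB-treated cells. Its ratios of 1.65, 1.42, 2.27 and 1.91 come from signals of 3.41 to 8.18 in control and 14.2 to 21.9 in HMB-treated cells, so no fold change is given. *ABCG1*, its partner in efflux, had no probe under its name.

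**Figure D3:**
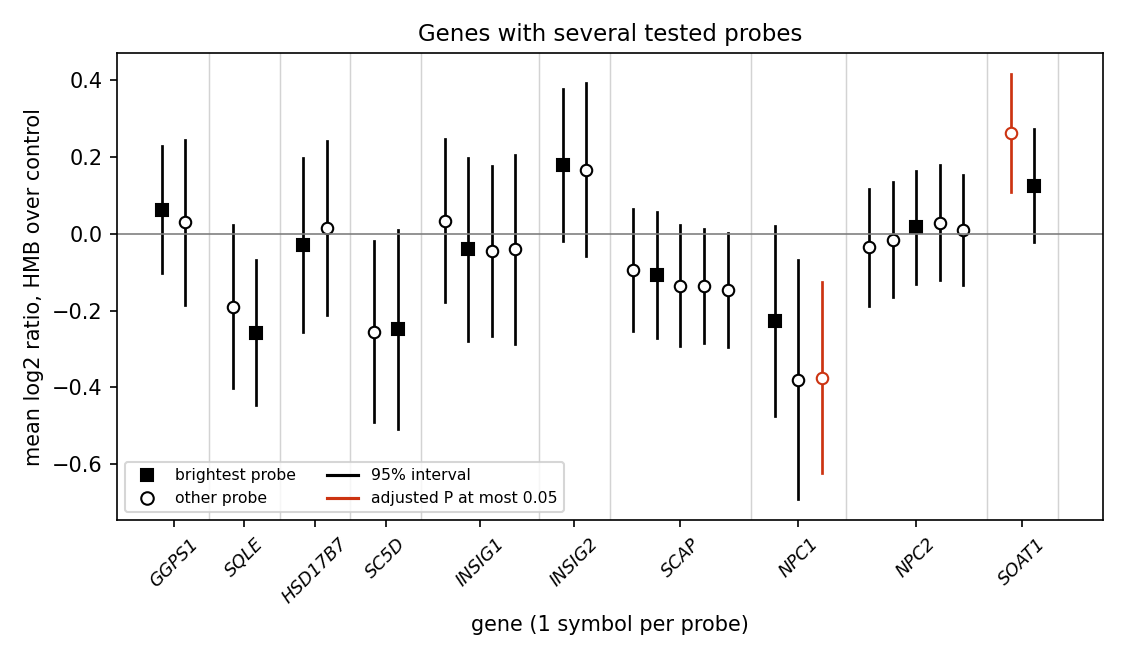
Mean log2 ratio of HMB over control (y axis) at each tested probe of the 10 sterol genes with several probes, with 95% intervals, filled squares for the brightest probe and red where the adjusted P was at most 0.05. Only 1 probe of *NPC1* (mean -0.37) and 1 of *SOAT1* (mean 0.26) are red.

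Of 7 other genes of sterol synthesis, outside the 32, 4 were tested and 1 passed (25%), with a median of 0.05. It was *LBR*, the lamin B receptor, which has the same sterol reductase activity as *TM7SF2*. Its ratios were 0.49, 0.38, 0.08 and 0.44. *LBR* was higher on 4 of 4 arrays, with a mean of 0.35 (SE 0.08, adjusted P 0.0311), the opposite direction to *TM7SF2*. Without array 1, 2 or 4 its mean was 0.30 to 0.34 and missed the threshold. Of 6 tested genes of SREBP cleavage and sterol-regulated degradation, none passed in limma and 0 had an unadjusted P under 0.05. Their median was 0.10, and the largest mean of the 6 was that of *RNF139*, a ubiquitin ligase of the endoplasmic reticulum (0.17, adjusted P 0.145).

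Of 5 tested genes of lipoprotein uptake, 1 passed (20%) and was lower, with a median of 0.03. This was *MYLIP*, the LXR-induced ligase that degrades the LDL receptor, at -0.33 (SE 0.07, lower on 4 of 4 arrays, adjusted P 0.0223), and both of its overlapping probes passed. It missed the threshold whichever array was left out (-0.38 to -0.29). Of 18 tested sterol-binding and trafficking genes, 3 passed at the brightest probe (16.7%), 2 higher and 1 lower, with a median of 0.02. Some dimmer probes of this list also passed and are not counted. *OSBPL3*, an oxysterol-binding protein relative, had ratios of -0.75, -0.68, -1.10 and -1.16, lower on all 4 arrays. It fell to 52.7% of control (mean -0.92, SE 0.10, adjusted P 0.00335). *SOAT2*, the other cholesterol acyltransferase, was higher at 0.29 (SE 0.07, 4 of 4 arrays, adjusted P 0.0273), but was at 0.06 with normexp correction (adjusted P 0.469) and 0.04 without lowess (adjusted P 0.74), and missed the threshold whichever array was left out (0.24 to 0.32). *TMEM97*, which binds and regulates NPC1, was higher at 0.26 (SE 0.06, 4 of 4 arrays, adjusted P 0.0281) with 5 of 5 probes past the threshold, and missed it without array 1, 2 or 3 (0.24 to 0.25) and without lowess (0.20, adjusted P 0.067).

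The non-sterol isoprenoid branch, which feeds ubiquinone, dolichol and prenylation, had 3 of 16 tested genes past the threshold at the brightest probe (18.8%), 2 higher and 1 lower, with a median of 0.07. A dimmer probe passed and was lower in the prenylation genes *PGGT1B* (-0.44, adjusted P 0.0417) and *CHML* (-0.30, adjusted P 0.0465), and no dimmer probe passed higher. Their brightest probes were at -0.20 (adjusted P 0.235) and -0.29 (adjusted P 0.112). These 2 genes were not run under the alternatives. *PDSS1*, which makes the ubiquinone side chain, had ratios of 0.27, 0.66, 0.58 and 1.26. It rose 1.62-fold (mean 0.69, SE 0.15, adjusted P 0.0239), most on array 4, and missed the threshold without array 2 (0.70) or array 3 (0.73). *COQ2*, the next enzyme, which joins that chain to the ring, was lower on 4 of 4 arrays at -0.40 (SE 0.10, adjusted P 0.0338), and without array 1, 3 or 4 it missed the threshold (-0.38 to -0.35). *DHDDS*, the dolichol chain enzyme, was higher on 4 of 4 arrays at 0.27 (SE 0.07, adjusted P 0.0406), and missed the threshold without array 2, 3 or 4 (0.23 to 0.27), with normexp (0.17, adjusted P 0.0704) and without lowess (0.18, adjusted P 0.0908).

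Of fatty acid and lipid synthesis genes under SREBP, 5 of 11 tested passed (45.5%, beside 22.4% with the brightest probe of all gene names), 4 higher and 1 lower, with a median of 0.24. It was 4 of 10 with both channels required above background, because *GPAM*, the first enzyme of glycerolipid synthesis and 1 of the higher genes, was then not tested. Its ratios were 0.77, 0.70, 0.67 and 0.42, over control signals of 18.1 to 23.6 that stood above background on 2 of 4 arrays, so no fold change is given. With normexp correction its mean was 0.16 (adjusted P 0.0505). *ELOVL6*, which elongates palmitate, was higher on 4 of 4 arrays at 0.40 (SE 0.08, adjusted P 0.0187), and without array 2 (0.38) or array 3 (0.34) it missed the threshold. *ELOVL5*, which elongates polyunsaturated fatty acids, was higher on 4 of 4 arrays at 0.33 (SE 0.08, adjusted P 0.0367), and missed it without array 1, 2 or 4 (0.27 to 0.33) and without lowess (0.20), and with normexp it was 0.20. The remaining higher gene, named after its values were seen, was the desaturase *FADS2* at 0.32 (adjusted P 0.0222). It missed the threshold without array 1, 2 or 3 (0.28 to 0.33), with normexp correction (0.08) and without lowess (0.15). The mean of its 5 overlapping probes was 0.55, but A_69_P010506 and A_69_P010507 (0.69 and 0.62) were tested through the HMB channel alone. Their control signals stood above background on 2 and 3 of 4 arrays. A_69_P010507 and A_69_P010508 did not pass (adjusted P 0.054 and 0.113). *SCD5*, another desaturase, was the lower gene, with ratios of -0.91, -1.05, -0.06 and -1.31. At this probe array 3 was near 0, but the other 4 probes of *SCD5*, which overlap it, were between -0.94 and -0.69 on array 3. Its mean was -0.83 (SE 0.19, adjusted P 0.0279), with 5 of 5 probes past the threshold at -1.10 to -0.78. The brightest missed the threshold without array 1, 2 or 4 (-0.81 to -0.67), and with normexp correction it was -0.55.

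Oxysterol enzymes and LXR partners had 1 of 6 tested genes past the threshold (16.7%), with a median of 0.18. *RXRA*, the partner receptor of the LXRs, had ratios of 0.10, 0.45, 0.61 and 0.61. It was higher on 4 of 4 arrays, though at other probes array 1 was not always the least, with a mean of 0.44 (SE 0.10, adjusted P 0.0253) and 5 of 5 probes past the threshold at 0.40 to 0.94. Of these, A_69_P014823 was tested through the HMB channel alone, with control signals above background on 3 of 4 arrays. The brightest *RXRA* probe missed the threshold without array 2, 3 or 4 (0.39 to 0.44) and with normexp correction (0.18), and was 0.28 without lowess. Mitochondrial HMG-CoA and ketone body enzymes had 1 of 6 past the threshold (16.7%), with a median of -0.01. *BDH1*, which interconverts the ketone bodies, had ratios of -0.70, -0.72, -0.81 and -0.83. The 4 arrays lay close together, and *BDH1* fell to 58.8% of control (mean -0.76, SE 0.06, adjusted P 0.00138).

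**Figure D4:**
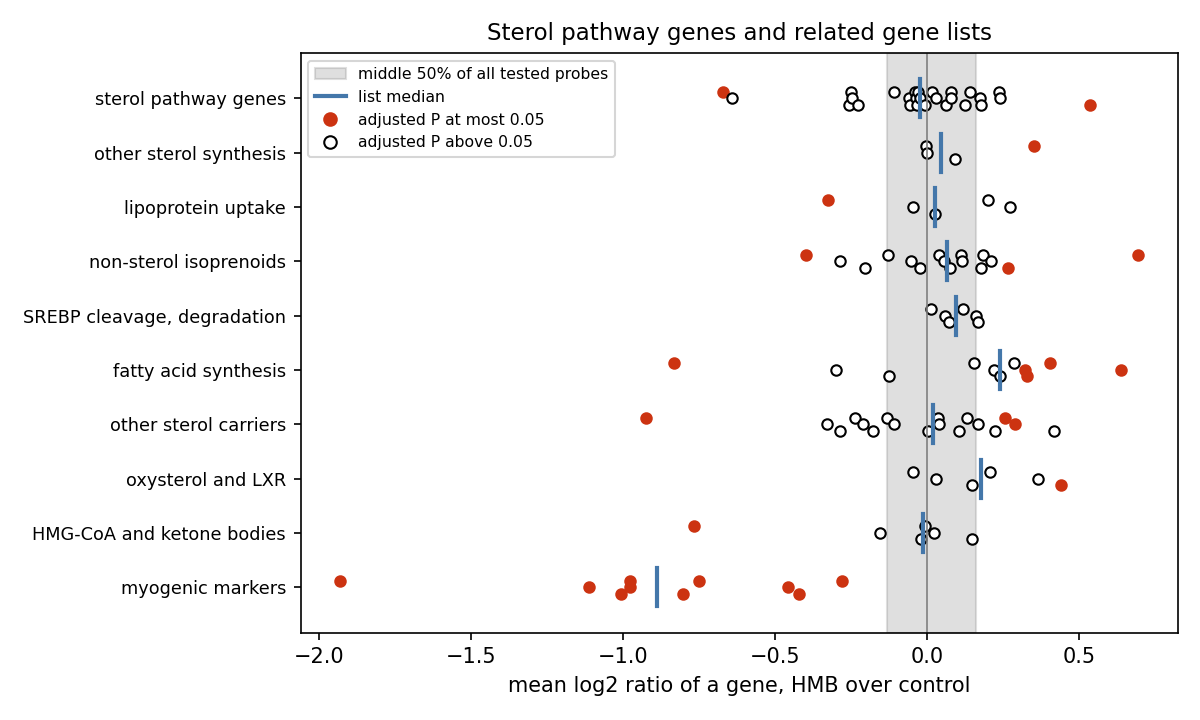
Mean log2 ratio of HMB over control (x axis) for each tested gene of the sterol pathway, of 8 related lists and of the myogenic markers, filled in red where the adjusted P was at most 0.05, with a blue line at each list's median and a grey band for the middle 50% of all tested probes. The sterol genes' median is -0.02, the fatty acid list's 0.24 and the myogenic markers' -0.89.

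**Figure D5:**
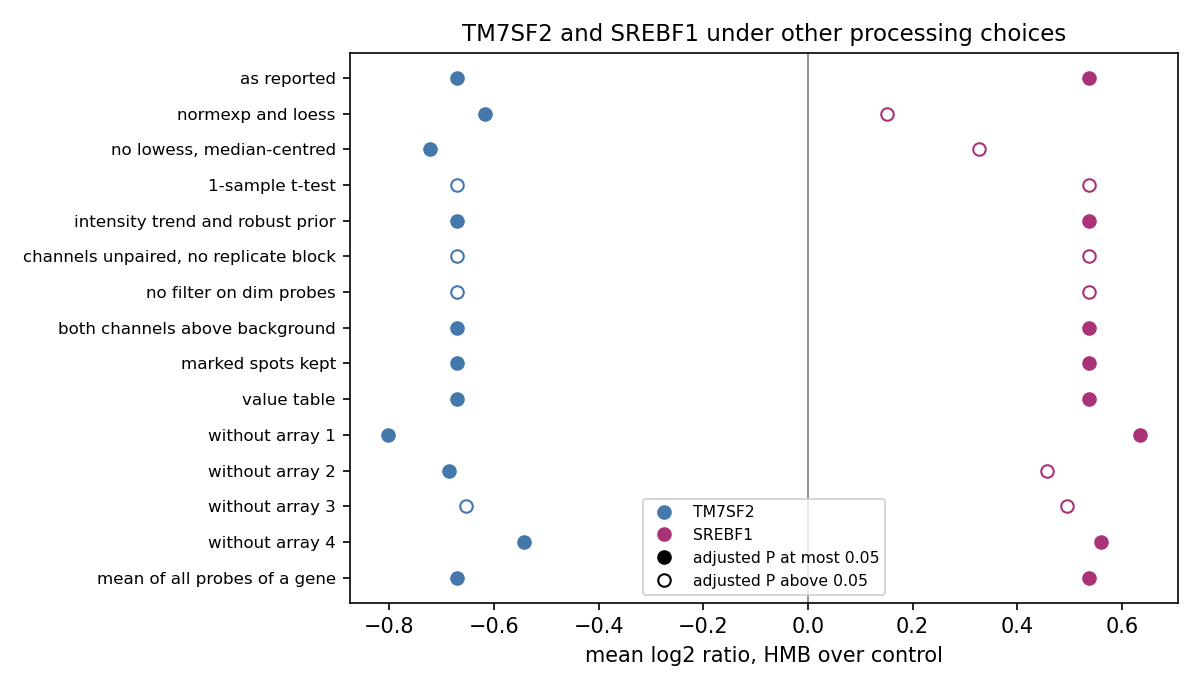
Mean log2 ratio of HMB over control (x axis) of *TM7SF2* and *SREBF1* as reported and under 14 other processing choices (y axis), filled where the adjusted P was at most 0.05. *TM7SF2* stays between -0.80 and -0.54 and is filled in 10 of the 14, and *SREBF1* runs from 0.15 to 0.63 and is filled in 7.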

How the data were processed

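Messenger RNA was measured on 4 two-colour Agilent horse arrays of 45220 spots, all on 1 slide and scanned on 1 day, so no slide or scan-day batch could be examined. The files name Feature Extraction 10.10.1.1 as the software that extracted the spots, while the methods section names another version. The deposited intensity values are background-subtracted, dye-normalised signals of each channel, with mean spot and median background intensity beside them. The ratios, Cy5 over Cy3, are deposited as log10 values that the authors normalised by a linear and a lowess step. The deposited value table held the same ratios, with a largest difference of 0. A workbook of the deposit calls them log2, but at spots well above background in both channels they differ from the log10 of the processed signals' quotient by at most 4.2e-07 and from its log2 by up to 2.43 to 5.24 per array, so they were read as log10. The deposited files also mark, with 0 or 1, whether a spot was bright enough, uneven, an outlier or saturated.

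A factor of 3.32 took the ratios to log2. Control spots were dropped, and with them 11 to 32 other spots per array with a mark for unevenness or as an outlier. Averaging repeated spots gave 43603 probes. Well above background were 63.5% to 66.9% of spots in control cells and 64.2% to 66.5% in HMB-treated cells, and 0 spots were saturated. To be tested, a probe needed a value on at least 3 arrays and 1 channel that stood well above background on each of the 4. The ratios of 27383 probes, 1 group of 4, were tested against 0, two-sided, by an intercept-only limma model with moderated variance (limma 3.58.1 under R 4.3.3). P was adjusted by Benjamini-Hochberg over all of them, at a threshold of 0.05. SE and 95% intervals are limma's moderated ones. A gene is represented by its tested probe with the highest mean log2 signal over both channels and all arrays. Figures were drawn in matplotlib 3.10.9 and tables built in pandas 2.3.3 and numpy 2.4.6 under Python 3.11.15. The steps were also tested on simulated data.

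Members, related lists and markers were chosen with earlier results of these data known, so list counts and medians are to be read beside those of all tested probes, and no list was tested as a set. Values per array are given for members past the threshold, for members whose probes differ in sign or call, and for *INSIG1*, *SREBF1*, *SREBF2*, *HMGCS1*, *ABCA1* and *ABCG1* where measured. Others are given by mean, with arrays added for some after their values were seen. From each related list up to 4 genes past the threshold are named by size of the mean, or the largest where none passed. *PGGT1B* and *CHML* were added for their dimmer probes after their values were seen. The markers named were picked after their values were seen. Symbols came from the files, except that *FDPS* was found by RefSeq accession.

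The alternatives were normexp background correction (offset 50) with loess, no lowess with median-centred ratios, a 1-sample t-test on the ratios of each probe, limma with an intensity trend and robust prior, unpaired channels without a replicate block, testing dim probes too, asking for both channels above background, keeping marked spots, reading the value table, leaving out each array, and the mean of all probes of a gene. They were run on each gene's brightest probe, or on the mean of its probes in the last, and on the *NPC1*, *SOAT1*, *DCN* and *COL1A2* probes that passed. Promoter sequences were not analysed here.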

Additional observations from a re-analysis of the deposited data

Results flagged for a closer look

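In 3 of 53 groups of 4 values looked at (27 sterol genes, 16 related genes, 9 markers and the sterol genes' median), an array stood far from the others, measured as its gap to the nearest other array over the whole range. Chance gives about 1 in 20 such groups. For *SC5D* the gap was 0.87 of the range, with array 4 at -0.65 and the others between -0.16 and -0.09. For *ACAT2* it was 0.859, with array 4 at -0.08 and the others between 0.30 and 0.36. For *NR1H2* it was 0.847, with array 1 at 0.59 and the others between -0.33 and -0.19. Of the 3, 2 were on array 4. The causes were not tested.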

How the results depend on the processing

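Over 14 alternatives (13 for the count over all probes, which has no mean of probes), 14 of the 27 sterol genes kept their sign and 13 changed it. None of those 13 had passed the threshold. At least 1 alternative put 8 genes past the threshold and 19 were never past it. *TM7SF2* passed in 10 and *SREBF1* in 7. Of 15 related genes named as past the threshold at the brightest probe, *BDH1* alone passed in all its alternatives, and 0 changed sign.

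Of all tested probes, 6257 passed as reported (22.8%), 768 with the 1-sample t-test (2.8%) and 2226 with channels unpaired (8.13%). With no filter on dim probes 3690 passed (8.46%), and with an array left out 2573 to 4957 did (9.35% to 17.7%). Without lowess 7157 passed (26.1%), with normexp 6239 (22.8%) and with both channels required above background 5771 (22.1%). The counts that follow can be read beside these shares. Of the sterol genes 2 passed as reported, 4 without lowess, 0 with the t-test (5 at an unadjusted P under 0.05), 0 by limma with channels unpaired (7 at an unadjusted P under 0.05), 1 with no filter (*ABCA1*, too dim otherwise), and 0 to 4 with an array left out. Their median ran from -0.05 to 0.06 with an array left out.

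By list, the t-test gave 0 in sterol synthesis, regulators, other sterol synthesis, uptake, isoprenoids, fatty acid synthesis, trafficking and oxysterols. Channels unpaired gave 0 in the same lists except fatty acid synthesis (1) and trafficking (1). The fatty acid gene was *GPAM*, tested through the HMB channel alone, with control signals above background on 2 of 4 arrays. No filter on dim probes gave 0 in sterol synthesis, regulators, other sterol synthesis, uptake, isoprenoids and oxysterols. It gave 1 in fatty acid synthesis, again *GPAM*, and 1 in transport. Normexp gave 2 in sterol synthesis, 0 in regulators, 1 in transport, 3 in fatty acid synthesis and 0 in oxysterols. No lowess gave 1 in the mevalonate genes, 2 in sterol synthesis, 0 in regulators, 1 in transport and 3 in fatty acid synthesis. Both channels above background gave 2 in sterol synthesis, 4 in fatty acid synthesis and 0 in macrophage markers. With an array left out the counts were 0 to 1 in the mevalonate genes, 0 to 2 in sterol synthesis, 0 to 1 in regulators, in transport, in other sterol synthesis and in oxysterols, 0 to 0 in uptake, 0 to 2 in isoprenoids, 1 to 4 in fatty acid synthesis and 1 to 5 in trafficking. *GPAM* passed whichever array was left out (limma adjusted P 0.00578 to 0.0236).

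Signs reversed without lowess for *HMGCS1* (-0.12), *GGPS1* (-0.0099), *HSD17B7* (0.043), *DHCR7* (-0.020) and *SREBF2* (-0.0082), and with normexp for *DHCR7* (-0.012). The marker *COL1A2* reversed with normexp (0.17) and without lowess (0.81), 2 of its other probes without lowess (0.44 and 0.34), and *CD14* with normexp (-0.029) and with an array left out (-0.040 to 0.084). With an array left out they spanned 0 for *HMGCS1* (-0.021 to 0.17), *MVK* (-0.13 to 0.0054), *PMVK* (-0.11 to 0.024), *MVD* (-0.12 to 0.057), *FDFT1* (-0.12 to 0.059), *HSD17B7* (-0.094 to 0.050), *DHCR7* (-0.051 to 0.089), *INSIG1* (-0.12 to 0.070), *NPC2* (-0.0080 to 0.046), *NR1H3* (-0.14 to 0.12) and *NR1H2* (-0.24 to 0.065). Leaving out an array leaves 3 ratios, and no filter adjusts over more probes. For the other alternatives the cause was not tested. Spots were a median of 3.16 to 3.82 times background in control cells.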
